A study of Rattus norvegicus with 6 samples.

Results

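The genes described here bind methylated DNA, put the methyl mark on or take it off: Mbd1, Mbd2, Mbd3, Mbd4, Dnmt1, Dnmt3a, Dnmt3b, Uhrf1 and Tet2. They were chosen by name, and a probe belonged to a gene when its RefSeq accession mapped to that rat gene. Of the 9 genes, 5 had a matched probe, 1 probe each, out of 15168 genes named on the array. Of these 5, Mbd1, Mbd2, Mbd3 and Dnmt3a were among the 23997 probes of the deposited table of normalized log2 signals, and Dnmt1 was not. Mbd4, Dnmt3b, Uhrf1 and Tet2 had no matched probe and were not analysed here.

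In mammals most DNA methylation sits on the cytosine of the dinucleotide CpG. Dnmt3a and Dnmt3b place methyl groups on unmethylated DNA, Dnmt1 copies the pattern to the daughter strand after replication, and Uhrf1 brings Dnmt1 to half-methylated sites. Proteins with a methyl-CpG binding domain read the mark: Mbd1 is a transcriptional repressor, Mbd2 recruits the NuRD complex of nucleosome remodeling and histone deacetylase subunits to methylated promoters, Mbd3 is a NuRD subunit that has largely lost the affinity for methylated CpG, and Mbd4 is a DNA glycosylase. Tet2 oxidizes methylcytosine, the first step of active demethylation. In the intestine, Mbd2 and the Dnmt genes have been studied for their part in adenoma formation in mice.

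RNA was taken from the colons of 6 rats, 3 of the S.LEW congenic strain (C1 to C3) and 3 of strain S (S1 to S3), each hybridized to 1 single-color Agilent array. S is the inbred Dahl salt-sensitive rat (SS/Jr), and S.LEW(10)x12x2x3x5 is a single congenic line in which a segment of chromosome 10 comes from the Lewis rat on the S background. All 6 rats were males on a diet of 0.3% NaCl, had azoxymethane (AOM), a carcinogen of the colon, at 15 mg/kg in 2 weekly injections from 6 weeks of age, and were 30 weeks old. There was no group without AOM, and whether tumor tissue entered the RNA is not stated. The rats are separate animals. They were housed with an S and a congenic rat in each cage, and the labels do not give which rats shared one. In whole colon, fewer cells of a type and less RNA per cell cannot be told apart.

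The median intensity of an array ranged from 214 to 594, and 73.8% to 87.6% of its spots were well above background. The library of S2 stood apart from its strain, and its label was kept. Across probes, its deposited values had a Pearson correlation of 0.967 to 0.976 with the 3 congenic arrays, against 0.900 for S1 and 0.937 for S3. The correlation of S1 with S3 was 0.980. Its epithelial markers were at the level of the S rats and its lymphocyte markers at that of the congenic rats, as given with the markers. Whether the sample was exchanged with another was not tested, and if it was, the values with S2 would mix the strains. The strain differences of the members, of the lists and of the genes described one by one are given with and without S2. As S2 was singled out by its values on these same arrays, p-values and counts without it are descriptive only. By their scan dates, arrays C1, S1, S2 and S3 were taken as slide 1 and C2 and C3 as slide 2. The slide barcodes were not used for this, so slide here means a group of arrays with the same scan date. Epithelial RNA was present in each sample: all 11 epithelial marker genes with a matched probe were in the table, with a mean log2 signal of 12.7 to 14.2 per rat. Cdx1 and Muc2, also on that list, had no matched probe. The markers do not test which part of the gut the RNA came from.

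The DNA before the start of Mbd2 and Mbd1 holds several copies of CpG, the dinucleotide that their proteins bind when it is methylated. It is printed because the ratio of these members separated the strains with the smallest error for its size. Both genes lie on chromosome 18, away from the congenic segment on chromosome 10. The sequences are those of RefSeq on the GRCr8 assembly, + strand, 5′ to 3′, ending at the base before the first base of the gene, with each CpG in capitals. The stretch before Mbd2 is chr18:66449108-66449195 (88 bases, 8 CpG), as the RefSeq gene begins at base 66449196, and that before Mbd1 is chr18:70145002-70145092 (91 bases, 9 CpG), as the gene begins at base 70145093.
Mbd2: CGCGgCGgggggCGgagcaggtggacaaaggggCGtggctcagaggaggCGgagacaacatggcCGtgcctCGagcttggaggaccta
Mbd1: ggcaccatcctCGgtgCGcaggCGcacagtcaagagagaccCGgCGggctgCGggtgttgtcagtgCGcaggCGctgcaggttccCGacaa

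The RefSeq promoter windows end just before a transcript start that for Mbd2 and Mbd1 lies further downstream, with the last bases at 66449357 and 70145251, so that the larger part of their CpG is inside the gene as annotated and is not printed. Over the 250 bases before each such transcript start, RefSeq entries were found for 8 of the 9 genes, with 10 windows in all. All 10 windows held more CpG than the median of 5 over 33469 rat promoters, a count that 49.8% of all promoters exceed. The window of Tet2 held 38 CpG and that of Mbd2 33, a number reached by 1.69% and 3.60% of promoters respectively. The windows of Mbd1, Dnmt3a and Mbd3 held 24, 18 and 17 CpG, and that of Dnmt1 held 9. The GC box, GGGCGG on either strand, was present in 7 of the 10 windows and in 30.5% of all promoters. It occurred 3 times for Mbd2 and 3 times for Mbd3, and was not found for Mbd1. These are counts of letters, and methylation itself was not measured.

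Mbd2, the NuRD-recruiting reader, had the higher signal in all 3 congenic rats. Its deposited log2 signal was 12.55, 12.29 and 12.10 in C1, C2 and C3, against 11.94, 11.68 and 11.92 in S1, S2 and S3. The lowest congenic value was above the highest S value, so the strains did not overlap. The means were 12.31 ± 0.23 and 11.85 ± 0.14 (SD, n = 3 each), a log2 difference of 0.47 (SE 0.20, 95% confidence interval -0.01 to 0.94), or 1.38-fold. By limma the unadjusted p was 0.0528 and the p adjusted over 23997 probes was 0.387. The exact two-sided permutation test gave p = 0.1, the smallest that 3 rats against 3 allow. The methods' t-test on the same values gave an adjusted p of 0.441, and its unadjusted p fell on the other side of 0.05. Without S2 the log2 difference was 0.39.

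Mbd3, the closest relative of Mbd2, barely varied. Its log2 signal was 9.54, 9.67 and 9.68 in C1, C2 and C3, and 9.56, 9.50 and 9.52 in S1, S2 and S3. The strains overlapped by the value of C1. The difference was 0.10 (SE 0.16, 95% confidence interval -0.28 to 0.49, adjusted p = 0.762 by limma, and 0.09 without S2), which as a ratio of congenic to S runs from 0.823 to 1.40.

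Mbd1, the reader encoded on the same chromosome as Mbd2, had its 2 highest values in S rats. The log2 signal was 10.16, 10.50 and 10.26 in C1, C2 and C3, and 10.98, 10.23 and 10.67 in S1, S2 and S3. S1 and S3 were above every congenic rat, and S2 was below C2 and C3. The difference was -0.31 (SE 0.24, 95% confidence interval -0.90 to 0.28, adjusted p = 0.554 by limma). Without S2 it was -0.51 with an unadjusted limma p of 0.0379 and an adjusted p of 0.102, and without S1 it was -0.14.

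Dnmt3a, a de novo methyltransferase, was the most variable member. It read 7.92, 7.18 and 7.92 on the log2 scale in C1, C2 and C3, and 8.95, 7.49 and 8.16 in S1, S2 and S3. The strains overlapped, with S2 again below C1 and C3. The difference was -0.53 (SE 0.42, 95% confidence interval -1.53 to 0.48, adjusted p = 0.559 by limma). It was -0.88 without S2 (unadjusted p = 0.0493 and adjusted p = 0.121 by limma), -0.15 without S1 and -0.28 without C2.

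Dnmt1, the maintenance methyltransferase, was not well above background on any of the 6 arrays. Its probe read an intensity of 5.05, 6.05 and 5.71 in C1, C2 and C3, and 13.9, 9.14 and 8.77 in S1, S2 and S3. The scanner software marked the signal as significant over the local background on 3 S arrays and 0 congenic arrays. With both strains below the level called well above background, no fold is given.

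**Figure D1:**
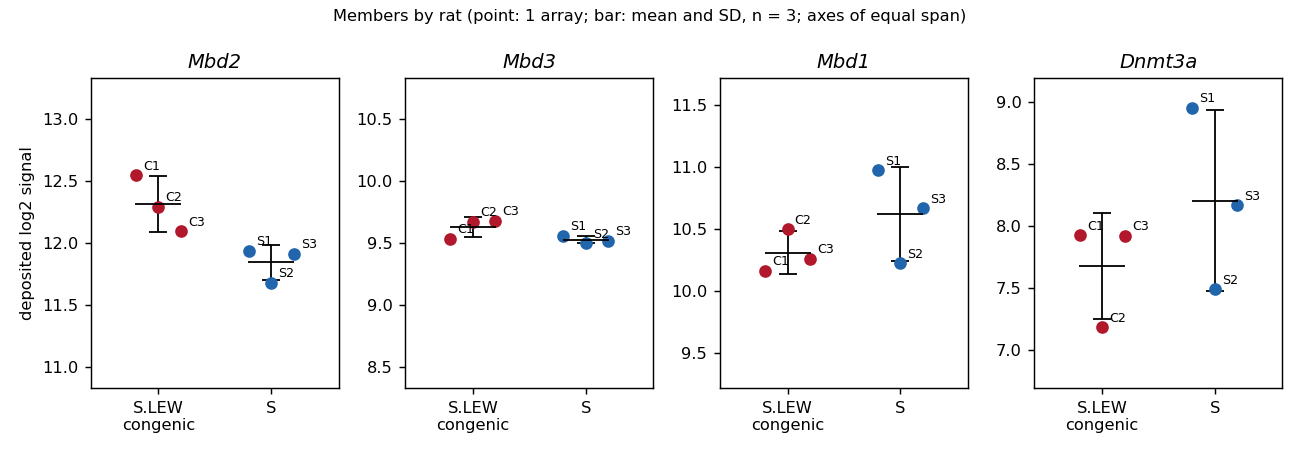
Deposited log2 signal (vertical axis, equal span in each panel) of Mbd2, Mbd3, Mbd1 and Dnmt3a in 3 S.LEW congenic and 3 S rats, with 1 point per array and bars for the mean and SD. Mbd2 is the 1 gene whose strains do not overlap, and S2 lies closest to the congenic rats for Mbd1 and Dnmt3a.

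At an unadjusted limma p under 0.05, 0 of the 4 members were higher in the congenic rats, where 8.58% of all probes were, and 0 were lower, where 4.4% were. With a 2-fold change required as well, the counts were again 0 and 0, beside 3.23% of probes higher and 2.34% lower. In 1 of 4 members the strains did not overlap with the congenic rats higher (Mbd2), a pattern shown by 12.4% of all probes, and in 0 of 4 with the congenic rats lower, shown by 5.33%. Without S2, 0 of 4 members were higher (22.7% of all probes) and 2 were lower, Mbd1 and Dnmt3a (18.3%). Mbd2 lay above 80.5% of all probes by its log2 difference, and Dnmt3a above 12.8%. No probe of the 23997 reached an adjusted p under 0.05 by limma with all 6 arrays, where the smallest was 0.0843 and 3115 probes had an unadjusted p under 0.05. The methods' t-test gave 0 and 2594 probes. Without S2 the same limma fit gave 5553 probes at an adjusted p under 0.05, a count that depends on leaving out an array chosen by these same values.

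The Mbd2 probe was printed at 10 places on each array, which gives the error of reading a spot within an array. Before normalization, the median intensity of the 10 spots was 5104, 3678 and 3924 for C1, C2 and C3, and 7327, 2268 and 5464 for S1, S2 and S3. The brightest and the dimmest array were both from S rats. The log2 SD over the 10 spots was 0.018 to 0.032 per array, 0.027 when pooled, or 1.92% of the intensity. The pooled SD between rats of a strain was 0.19 on the deposited log2 scale, 6.88 times the spot SD. With 1 array per rat, that SD holds labelling and hybridization error as well as variation between rats. The spots of 1 array share the same RNA and are not replicates of a rat.

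**Figure D2:**
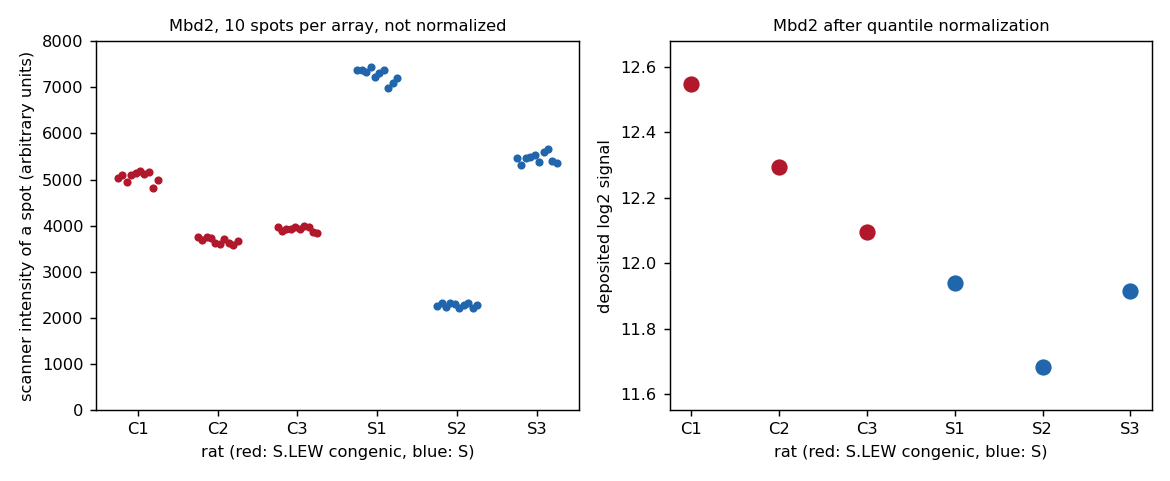
Left, scanner intensity of each of the 10 Mbd2 spots per array in arbitrary units, not normalized. Right, the deposited log2 signal of Mbd2 after quantile normalization, 1 point per rat. Spots of an array lie close together, and the S arrays run from 2268 to 7327 before normalization but lie below every congenic array after it.

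The strains were separated for Mbd2 after scaling the arrays to each other and not before. Divided by the median intensity of its own array, the median Mbd2 spot was 18.7, 17.2 and 13.5 in C1, C2 and C3, and 12.3, 10.3 and 12.3 in S1, S2 and S3. Without any normalization the log2 difference of Mbd2 was -0.10, of Mbd3 -0.51, of Mbd1 -0.92 and of Dnmt3a -1.16. Over all probes the median difference was then -0.61, and the arrays of S1 and S3 were the brightest as a whole. Relative to that median the differences were 0.50, 0.10, -0.31 and -0.56, with the signs that the deposited values gave.

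A ratio of 2 members on the same array does not depend on the brightness of the array as a whole. The log2 ratio of Mbd2 to Mbd1, centred on its mean over the 6 arrays, was 0.77, 0.18 and 0.22 in C1, C2 and C3, and -0.65, -0.16 and -0.37 in S1, S2 and S3. All congenic values were positive and all S values negative. The difference was 0.78 (SE 0.24), with an exact permutation p of 0.1, or 0.3 after Benjamini-Hochberg adjustment over the 6 pairs of members. It was 0.82 on the scanner intensities without normalization, and 0.59 to 0.90 when 1 rat at a time was left out. A ratio within an array shows unequal change of the 2 probes and not which of them changed.

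The other ratios were less separated. Mbd2 to Mbd3 differed by 0.36 (SE 0.19), with strains that did not overlap in the deposited values but did on the scanner intensities, where the difference was 0.41. Mbd2 to Dnmt3a differed by 0.99 (SE 0.44), with overlap in the deposited values and none on the scanner intensities (1.06). The differences were -0.42 for Mbd1 to Mbd3, 0.21 for Mbd1 to Dnmt3a and 0.63 for Mbd3 to Dnmt3a, and in these 3 ratios the strains overlapped. Pgk1, a glycolytic enzyme used as a reference gene, differed by 0.03 (SE 0.17) itself. Against Pgk1, Mbd2 differed by 0.44 (SE 0.24), with overlapping strains and an exact permutation p of 0.3, or 0.5 after adjustment over 4 such ratios.

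**Figure D3:**
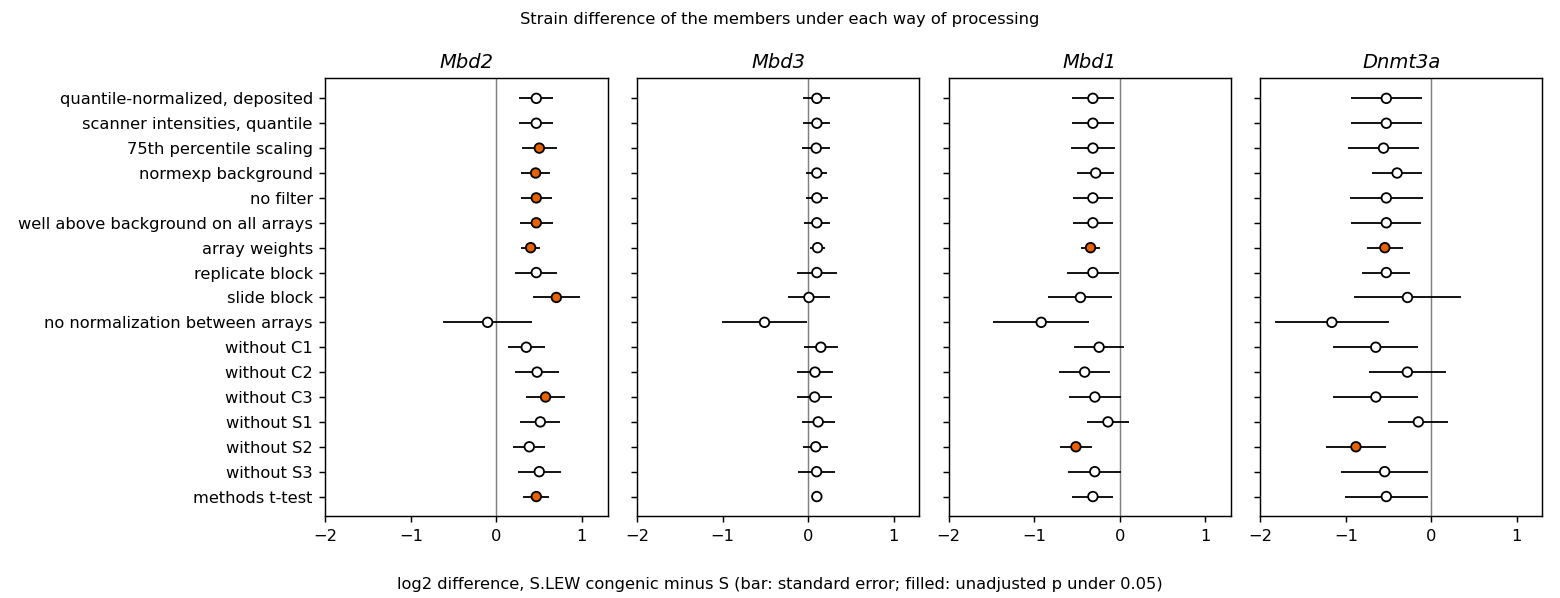
Log2 difference, S.LEW congenic minus S (horizontal axis), of each member under each way of processing, with bars for the standard error and filled circles for an unadjusted p under 0.05. Mbd2 stays between 0.35 and 0.70 in each row but the one without normalization between arrays (-0.10), and Mbd1 and Dnmt3a lie below 0 in every row.

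Processing moved the members little relative to their errors, with the exceptions that follow. The difference of Mbd2 was 0.50 after scaling to the 75th percentile and 0.46 after normexp background correction, each with an unadjusted limma p under 0.05, as were those with no filter on dim probes and with a filter on all 6 arrays (0.47 each). With the slide as a block, which compares C1 with the 3 S rats on slide 1, it was 0.70. The rats left out 1 at a time gave 0.35 (without C1) to 0.57 (without C3). With array weights the difference was 0.40 and the adjusted p 0.0221, but 12474 of all probes then passed an adjusted p under 0.05 and the estimate of the weights did not converge.

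Among the genes whose centred values followed those of Mbd2 most closely over the 6 arrays were Phb2, a mitochondrial prohibitin, and Slc25a5, a mitochondrial adenine nucleotide translocase. Their mean absolute distance from Mbd2 was 0.049 and 0.056 on the log2 scale. Their own log2 differences between the strains were 0.44 and 0.50. As they were picked for closeness to Mbd2 on these same arrays, differences near that of Mbd2 follow from the choice.

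Other genes of the pathway were described in 4 lists. Of 57 genes, 45 had a matched probe and 43 were in the deposited table. At an unadjusted limma p under 0.05, the congenic rats had 2 higher and 3 lower, 11.6% of those tested beside 13.0% of all probes in either direction. The share among these genes was thus near that of the array as a whole. For the counts of each list below, the shares of all probes were 8.58% higher and 4.4% lower. No gene of the lists had an adjusted p under 0.05.

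Of the other readers of methylated DNA, 7 of 11 genes were tested, with 0 higher, 1 lower and a median log2 difference of -0.22 beside 0.01 over all probes (-0.31 beside 0.06 without S2). The 1 lower gene was Uhrf2, a relative of Uhrf1 that binds hydroxymethylated DNA, chosen after its values were seen because its strains overlapped. Its log2 signal was 9.96, 10.25 and 10.20 in C1, C2 and C3, and 12.34, 10.17 and 11.99 in S1, S2 and S3. S1 and S3 were far above the other rats, and S2 was among the congenic ones. The difference was -1.36 (SE 0.56, adjusted p = 0.383 by limma), and -2.02 without S2.

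None of the tested NuRD partners of Mbd2 and Mbd3 passed the threshold. Of 13 genes, 8 were tested, with 0 higher and 0 lower, beside 8.58% and 4.4% of all probes. Counts of 0 among 8 genes do not set them apart from the array as a whole. Their median difference was -0.07 (-0.19 without S2). They ran from -0.42 for Mta2, a metastasis-associated subunit, to 0.10 for Gatad2b, a p66 subunit. The histone deacetylase Hdac1 had 3 probes, with differences of -0.05, 0.13 and 0.13. The probe of Hdac2 was well above background on 0 arrays and was not in the table, which, as for Dnmt1, does not show that its RNA was absent.

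Of the writer cofactors and genes of the methyl donor cycle, 16 of 17 were tested, with 0 higher, 1 lower and a median of 0.02 (-0.03 without S2). The lower gene was Mtr, methionine synthase, which regenerates the methionine used for methyl donation. Its log2 signal was 5.82, 5.78 and 5.50 in C1, C2 and C3, and 6.96, 5.97 and 6.70 in S1, S2 and S3. All S rats were above all congenic rats, but the probe was well above background on 1 congenic and 3 S arrays, so it was kept for the table through the S rats and the level of the other congenic rats is not well measured. On the deposited values the difference was -0.85 (SE 0.29, adjusted p = 0.346 by limma), and -1.13 without S2. Ahcy and Ahcyl1, an S-adenosylhomocysteine hydrolase and a related protein, were higher in all congenic rats than in all S rats without passing the threshold, by 0.30 and 0.40 on the log2 scale (0.22 and 0.57 without S2). They were 2 of the 16 tested genes of this list, near the 12.4% of all probes with that pattern. Both are named after their values were seen. A second probe of Ahcyl1 differed by 0.14.

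Dnmt3l, the catalytically inactive cofactor of Dnmt3a and Dnmt3b, had the widest spread of the writers, and is named after its values were seen. Its log2 signal was 5.90, 6.52 and 6.19 in C1, C2 and C3, and 10.00, 5.82 and 8.93 in S1, S2 and S3. S1 and S3 were far above the other 4 rats, among which S2 was the lowest. The difference was -2.05 (SE 1.01, adjusted p = 0.420 by limma), and -3.26 without S2.

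Of the other demethylation genes, 12 of 16 were tested, with 2 higher, 1 lower and a median of -0.12 (-0.21 without S2). Gadd45b, a stress-induced gene linked to active demethylation, was the gene of the 4 lists with the lowest p. Its log2 signal was 8.28, 8.18 and 8.37 in C1, C2 and C3, and 10.15, 9.09 and 9.82 in S1, S2 and S3. Every S rat, S2 included, was above every congenic rat. The difference was -1.41 (SE 0.29, unadjusted p = 0.00255 and adjusted p = 0.228 by limma), with -1.71 to -1.18 when 1 rat at a time was left out (-1.71 without S2) and -1.41 with the slide as a block.

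The 2 higher genes were isocitrate dehydrogenases, which make the 2-oxoglutarate that Tet enzymes need. Idh1, the cytosolic form, had a log2 signal of 11.00, 11.18 and 10.65 in the congenic rats and 10.14, 10.45 and 10.24 in the S rats, without overlap. The difference was 0.67 (SE 0.21, adjusted p = 0.329 by limma), and 0.75 without S2. Idh2, the mitochondrial form, chosen after its values were seen, had 13.51, 13.62 and 13.79 in C1, C2 and C3, and 12.37, 13.53 and 12.59 in S1, S2 and S3. S2 lay within the congenic range. The difference was 0.81 (SE 0.33, adjusted p = 0.380 by limma), and 1.16 without S2.

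Without S2, 0 readers were higher and 1 lower, 0 NuRD partners were higher or lower, 4 writers were higher and 4 lower, and 2 demethylation genes were higher and 4 lower. Over the 4 lists these were 14.0% of the tested genes higher and 20.9% lower, beside 22.7% and 18.3% of all probes.

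**Figure D4:**
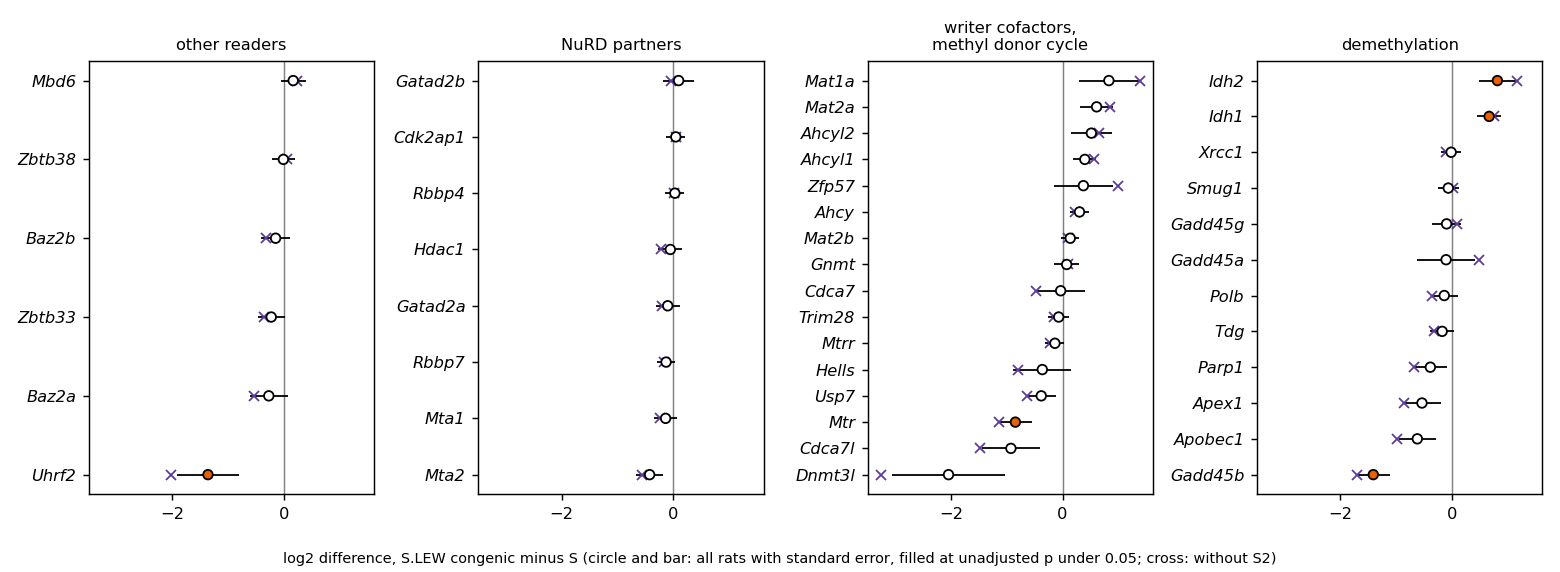
Log2 difference, S.LEW congenic minus S (horizontal axis), of tested genes of the 4 pathway lists, as circles with standard error bars for all 6 rats and crosses without S2. Filled circles have an unadjusted p under 0.05: Uhrf2, Mtr and Gadd45b lower, Idh1 and Idh2 higher, with Dnmt3l the lowest value at -2.05.

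Markers of cell types differed between the same samples. Of 11 colon epithelium markers tested, 9 were higher in the congenic rats at an unadjusted limma p under 0.05 (8.58% of all probes). In 8 the strains did not overlap, with the congenic rats higher (12.4% of all probes), and the median log2 difference was 0.89. Without S2, 10 were higher (22.7% of all probes) and the median was 0.95. Their centred mean was 0.79, 0.59 and 0.22 in C1, C2 and C3, and -0.55, -0.40 and -0.64 in S1, S2 and S3. Mbd2 had the same order among the congenic rats, with centred values of 0.47, 0.22 and 0.02, and -0.14, -0.40 and -0.16 in the S rats. Among the S rats the order differed, as S2 was the highest for these markers and the lowest for Mbd2. The part of these markers in the difference of Mbd2 was not tested.

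Of 10 lymphocyte markers tested, the congenic rats had 0 higher and 5 lower (4.4% of all probes), with a median of -2.70. Without S2, 9 were lower (18.3% of all probes) and the median was -3.74. Their centred mean was 2.77 in S1 and 2.61 in S3, but -1.45 in S2, beside -1.41 to -1.14 in the congenic rats, and their mean log2 level ran from 6.80 to 7.07 in the congenic rats and from 6.76 to 11.0 in the S rats. The probes of Cd3e, Cd2 and Cd79b, which define T and B cells, were well above background in S1 and S3 only. Mbd1, Dnmt3a, Dnmt3l and Uhrf2 were likewise highest in S1 and S3. The part of lymphocyte RNA in these differences was not tested.

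For the lists that follow, the shares of all probes were 8.58% higher and 4.4% lower, and 22.7% and 18.3% without S2. Of 14 proliferation markers, 1 was higher (Tyms, thymidylate synthase) and 1 lower (Mcm3, a replication licensing factor), with a median of -0.46. Without S2, 1 was higher and 9 lower, with a median of -0.77. Their centred mean was highest in S1 (0.85) and S3 (0.38) and lowest in C3 (-0.63). Of 8 smooth muscle markers, 1 was higher and 0 lower, with a median of 0.91. Without S2, 7 of them were higher and the median was 1.49. Their centred mean was lowest in S1 (-1.39) and highest in S2 (0.67). Of 7 striated muscle markers, 0 were higher and 3 lower, with a median of -1.39, and 3 of the 7 lay above 0. Without S2 the median was -0.30, with 1 higher and 3 lower. Of the lower genes, Myh1 and Mybpc1 were well above background on 3 S arrays, S2 included, and on 0 congenic arrays. These probes were thus kept for the table through the S rats, and their level in the congenic rats is not well measured. The part of these lists in the values of the members was not tested either.

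**Figure D5:**
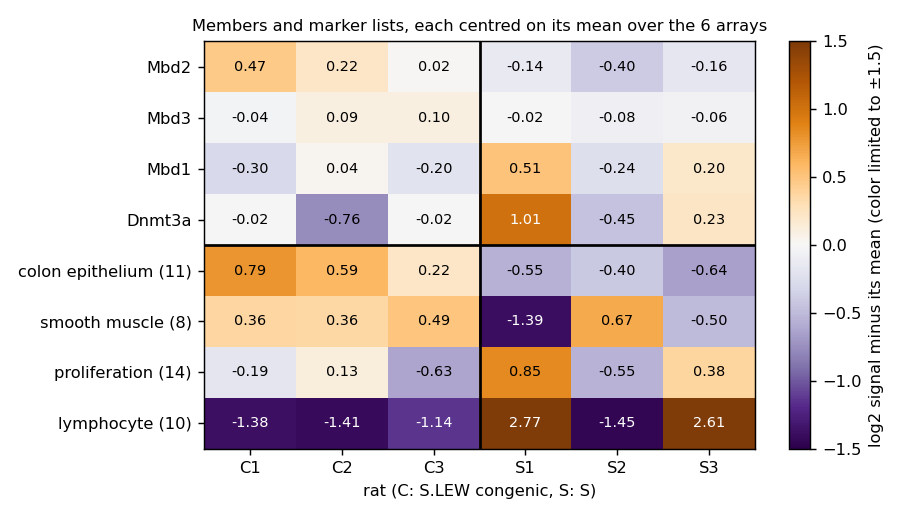
Log2 signal of each member and mean log2 signal of each marker list (number of tested genes in brackets), centred on its mean over the 6 arrays, with the rats in columns and the color limited to 1.5 either side of 0. The lymphocyte row is above 2.6 in S1 and S3 and below -1.1 in the other 4 rats, and the epithelial row separates the strains.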

How the data were processed

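Colon RNA of 3 S.LEW congenic and 3 S rats was read on 6 single-color Agilent arrays. The authors extracted the images with Agilent Feature Extraction 11.0.1.1, and the deposited scanner files give an intensity per spot, corrected for background, with flags for spots well above background. The authors then quantile-normalized the arrays in GeneSpring, removed probes detected in fewer than 3 samples and deposited log2 values for 23997 probes. These log2 values, which no source states to be centred, were the main values. Their column medians were 8.55 to 8.57, and the scanner intensities, when averaged per probe and quantile-normalized, correlated with them at 0.999908 or more on each array.

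The strain difference of each probe was fitted by limma (version 3.58.1, R 4.3.3) without covariates. Its p-values were adjusted over all probes by the Benjamini-Hochberg method. Tests are two-sided. The unpaired methods' t-test assumes equal variances. Accessions were matched to RefSeq genes of GRCr8, which named 18005 of 30367 probes. For list genes with several probes, the one with the highest mean signal was used. Plots were drawn with matplotlib 3.10.9. The scripts were tested on simulated data.

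The members and lists were chosen with earlier results of these data known. The text names all members, up to 3 genes per pathway list with the lowest p under 0.05 among those whose strains do not overlap, and the 3 genes nearest to Mbd2. Uhrf2, Dnmt3l, Idh2, Ahcy and Ahcyl1 were named after their values were seen. Some of the genes that the rule or the lists hold are not reported here. Alternatives were the scanner intensities with quantile normalization, the 75th percentile or normexp (offset 50, on the median signal), other filters, weights per array, a block by replicate number or by slide, the methods' t-test and leaving out each rat. Arrays without normalization and ratios within an array were added after the data were seen. The number of arrays limits the precision.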

Additional observations from a re-analysis of the deposited data

How the results depend on the processing

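Mbd1 and Dnmt3a kept a negative difference in each of 10 alternatives and with each rat left out, and Mbd2 and Mbd3 a positive one except without normalization between arrays, where they were -0.10 and -0.51 beside a median of -0.61 over all probes. The log2 difference of Mbd2 fell just short of an unadjusted p of 0.05 and passed it at 0.50 (75th percentile), 0.46 (normexp), 0.47 (no filter, and all 6 arrays), 0.40 (array weights), 0.70 (slide block) and 0.47 (methods' t-test), which made 1 member higher in each. With array weights Mbd1 was -0.34 and Dnmt3a -0.54, both past an unadjusted p of 0.05, which made 2 members lower. In that setting 14093 of 23997 probes had an unadjusted p under 0.05, and the estimate of the weights did not converge. Its counts of members and pathway genes are therefore not particular to them. The 2 higher pathway genes became 1 with no filter and 1 with the replicate block, 3 with normexp, 8 with array weights, 0 with the slide block and 0 without normalization. The 3 lower ones became 2 with the 75th percentile, normexp, no filter, the filter on all 6 arrays and the methods' t-test. They became 12 with array weights, 1 with the slide block and 4 without normalization. Leaving out 1 rat at a time gave -0.51 (without S2) to -0.14 (without S1) for Mbd1, 0.35 to 0.57 for Mbd2, 0.08 to 0.15 for Mbd3 and -0.88 (without S2) to -0.15 (without S1) for Dnmt3a. The members higher numbered 0 to 1 (1 without C3) and lower 0 to 2 (2 without S2), and the pathway genes higher 0 to 6 and lower 1 to 9, the upper number of both without S2.

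The deviations of same-numbered rats from their strain means correlated at -0.02, -0.13 and -0.06, so the replicate numbers showed no shared deviation. With means of 3 rats, and S2 apart from S1 and S3, these values cannot exclude a pairing. With the replicate block the difference of Mbd2 was 0.47 (unadjusted p = 0.117 by limma), and 2563 in place of 3115 probes had an unadjusted p under 0.05. That count was 1102 with the slide block, 9843 without S2 and 14093 with array weights, and between 1288 and 2173 with any other rat left out. The causes of these shifts were not tested.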
